A study of Mus musculus with 12 samples.

Results

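The solute carrier (SLC) genes are the largest collection of membrane transporter genes in mammals, and their m6A peaks in the mouse hippocampus are described here. Members were every gene whose symbol begins with Slc followed by a family number, a letter and a member number. The WT peak list held 499 member peaks in 251 genes, of 33622 peaks in 15781 genes. The Tyrobp-/- list held 520 member peaks in 260 genes, of 34935 peaks in 16146 genes. A total of 275 member genes had a peak in at least 1 list, with 236 genes in both, 15 (5.45%) in the WT list only and 24 (8.73%) in the Tyrobp-/- list only. Over all genes with a peak in either list, 9.01% were in the WT list only and 11.1% in the Tyrobp-/- list only. The symbol also takes in a few names that are not transporters, such as the pseudogene Slc25a5-ps and the scaffold gene Slc9a3r1.

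Hippocampal RNA came from 6-month-old male C57BL/6 mice, either Tyrobp-/- mice with a TALEN-made deletion or their WT littermates. Tyrobp encodes an adaptor protein of microglia and other myeloid cells, and the knockout was not restricted to a cell type. Each genotype had 3 samples, each a pool of 3 mice, and each sample gave an m6A immunoprecipitation (IP) library and an input library. The 12 libraries held 61189368 to 73554506 valid reads, and the depth behind a single peak is unknown. The deposited peaks form 1 list per genotype for its 3 samples, so each peak has 1 value per genotype and no replicate error. No difference between genotypes could be tested, and a 2-fold rule describes differences in its place. Tyrobp itself had no peak in either list, so the lists do not check the knockout.

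Solute carriers move amino acids, sugars, ions, metals, vitamins, nucleotides and neurotransmitters across the plasma membrane and the membranes of organelles. In the hippocampus they clear glutamate and GABA from the synapse, load synaptic vesicles, set the chloride and calcium gradients of neurons and pass glucose and lactate between blood, glia and neurons. N6-methyladenosine (m6A) is a methyl mark on internal adenosines of mRNA, written by a METTL3-METTL14 enzyme complex, often in the letters GGAC or close variants, and commonly found around stop codons and in 3' UTRs. Antibodies to m6A can also bind the related mark next to the mRNA cap, so a peak at a transcript start may hold either.

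Sequence is shown for transcript starts under a peak, where RefSeq start windows (GRCm38.p6) give the letters of the annotated start. No reads were examined, so the bases in the immunoprecipitated fragments are not known. A peak of the same gene covered all of the first 50 transcribed bases at 36 member start windows in 32 genes. GGAC stood on the RNA strand in 11 of these 36 windows (30.6%), against 21.7% of the 2374 covered windows of all genes and 18.9% of all 32851 start windows. The share was 4 of 20 (20%) at member windows covered in both lists and 21.1% over all 370 member start windows, both near the share of all windows. The letters GTCC, which are GGAC on the other strand, stood in 4 of the 36 (11.1%) in 21.4% of the 370 and in 19.2% of the 2374. A match is a description of the letters and not a mapped site. The 5 stretches below are the 4 member starts with GGAC that were covered in both lists and that of Slc25a28, which held the strongest Tyrobp-/- peak, with GGAC in capitals.
Slc18a3 (chr14:32464813-32464842, minus strand): aagaggcaagagcGGACgcgcggggagggc
Slc25a28 (chr19:43674832-43674861, minus strand): gggccgcgcctgaggcGGACgcaacggggc
Slc24a3 (chr2:145167775-145167804, plus strand): gcgagcaggagagGGACcccgagcgcaggg
Slc37a1 (chr17:31296244-31296273, plus strand): tgcggagcgcaggtaggcgcggGGACaacg
Slc35c1 (chr2:92459745-92459774, minus strand): cctgctcggtaagtggcccgGGACccgcgt

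The start of Slc18a3, which loads acetylcholine into vesicles, was under a peak with a fold enrichment (IP reads over input reads) of 5.37 in WT and 15.2 in Tyrobp-/-. The start of Slc24a3, a potassium-dependent sodium-calcium exchanger, had values of 5.53 and 8.58. The Slc37a1 start (a glucose-6-phosphate antiporter) had values of 6.84 and 12.4, and the Slc35c1 start (the Golgi GDP-fucose transporter) had 4.67 and 3.7. The WT peak at the Slc37a1 start had a peak-calling false discovery rate of 0.164 and overlaps another peak of its own list. At Slc18a3 that rate was 0.0525 in WT. The Slc25a28 start (a mitochondrial iron importer) was covered in Tyrobp-/- only, at 33.4.

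Most member peaks lay in 3' UTRs, in both genotypes. In WT, 280 of 499 member peaks (56.1%, exact 95% interval 51.6 to 60.5) were annotated to a 3' UTR, against 47.2% of all peaks. In Tyrobp-/-, the share was 305 of 520 (58.7%, 54.3 to 62.9), against 49.3% of all peaks. Counting only the strongest peak of each gene gave 60.6% of members and 51.1% of all genes in WT, and 61.5% and 53.8% in Tyrobp-/-. The intervals cover counting error only and treat peaks of 1 gene as independent, and no test was made. The 5' UTR took 22.2% (18.7 to 26.2) of member peaks in WT and 22.5% (19 to 26.3) in Tyrobp-/-, against 18.9% and 17.3% of all peaks. First exons took 6.61% and 4.81% of member peaks, against 11.5% and 11.6% of all peaks, and other exons took 15.0% and 14.0%, against 22.4% and 21.7%.

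**Figure D1:**
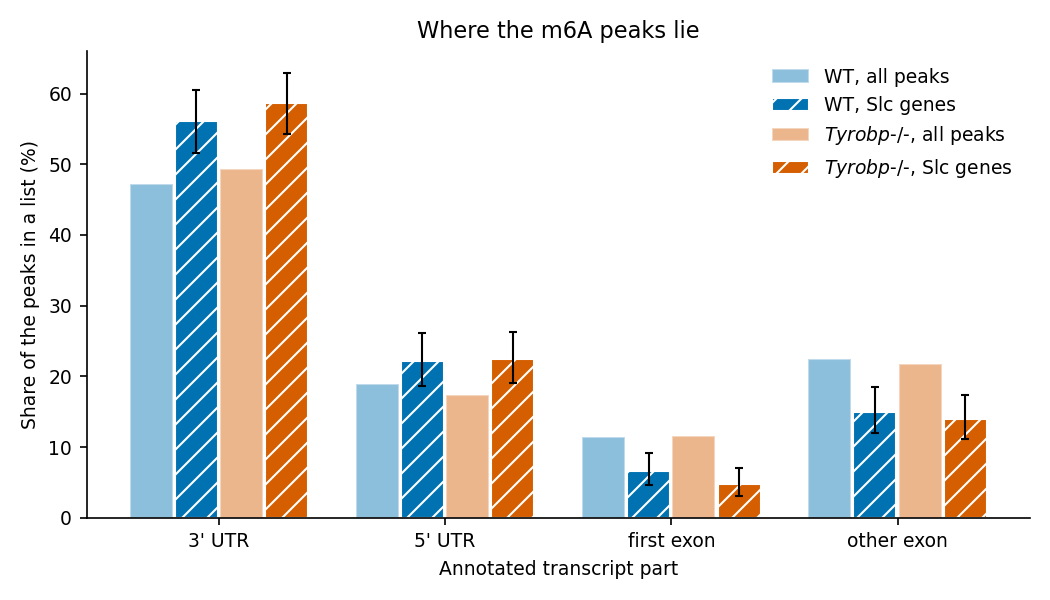
Share of peaks (%) in each annotated transcript part, for all peaks and for Slc gene peaks (hatched) in each genotype, with error bars for the exact 95% binomial interval of the Slc shares. The 3' UTR bar of Slc genes is 56.1% in WT and 58.7% in Tyrobp-/-, above the 47.2% and 49.3% of all peaks.

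Along the gene, member peaks gathered at the ends, as peaks in general did. The last 10% of the annotated gene span held 45.3% of member peak centres in WT and 48.3% in Tyrobp-/-, and the first 10% held 20.4% and 21%. For all peaks the last 10% held 37.7% and 40%, and the first 10% held 20.4% and 19.5%.

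**Figure D2:**
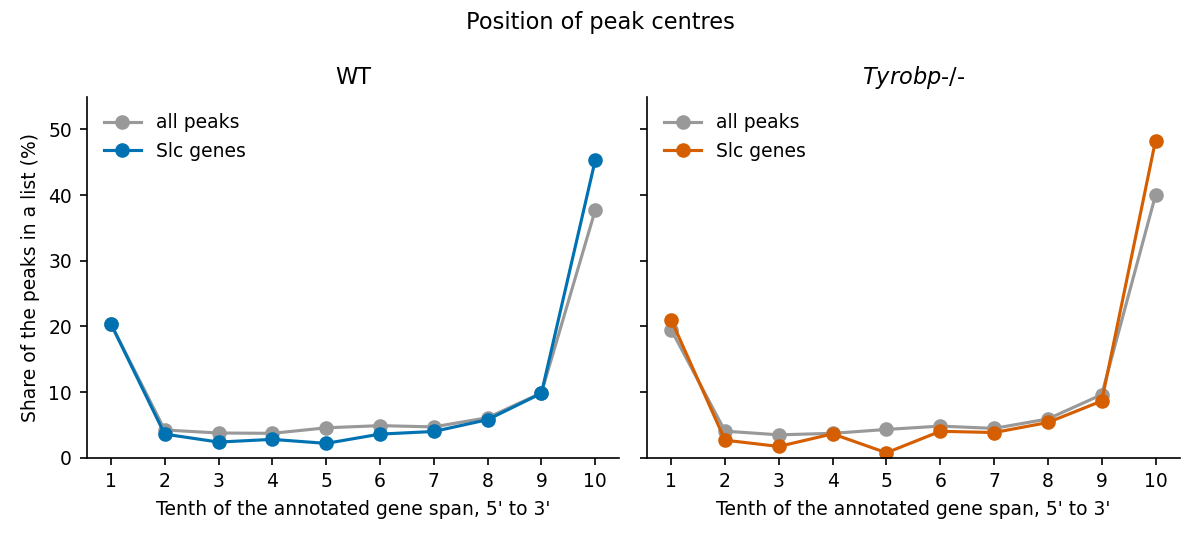
Share of peak centres (%) in each 10% step of the annotated gene span from 5' to 3', for all peaks (grey) and Slc gene peaks (coloured), with WT on the left and Tyrobp-/- on the right. The last step holds 45.3% of Slc peaks in WT and 48.3% in Tyrobp-/-.

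Member peaks were about as strong as peaks in general. The median fold enrichment of members was 4.95 in WT (quartiles 3.1 and 7.81) and 5.08 in Tyrobp-/- (2.99 and 8.26), and that of all peaks was 5.54 and 5.72. A false discovery rate (FDR) of the peak caller under 0.05 was reached by 89.6% of member peaks in WT and 89.8% in Tyrobp-/-, close to the 89.7% and 89.0% of all peaks. Of the 5 strongest peaks in WT, 3 were also among the 5 strongest in Tyrobp-/-. The Slc27a4 (a fatty acid transporter) 5' UTR peak at chr2:29802634-29802813 had 47.9 in WT and 28.6 in Tyrobp-/-. The Slc25a48 (a mitochondrial carrier) 3' UTR peak at chr13:56473552-56474209 had 44.9 and 27.6. The Slc2a3 (the main neuronal glucose transporter) 5' UTR peak had 42.0 and 25.4. These 3 were all higher in WT and all within 2-fold. Slc26a4 and Slc26a8, both anion transporters best known from other tissues, had peaks of 32.2 and 31.9 in WT. In Tyrobp-/- the 5' UTR peak of Slc25a28 (33.4) and the 3' UTR peak of Slc1a6, the glutamate transporter of Purkinje cells, (32.1) stood highest, and the Slc1a6 peak had 24.9 in WT.

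Members with a peak spanned nearly all transporter groups. Of 373 protein-coding members in RefSeq, 249 (66.8%, 61.7 to 71.5) had a WT peak and 259 (69.4%, 64.5 to 74.1) had a Tyrobp-/- peak, against 56.8% and 58.1% of all 21896 protein-coding genes. No peak in either list was found for 100 of the 373. All 14 monocarboxylate transporters had a peak in at least 1 list, as did 25 of 27 nucleotide sugar transporters, 8 of 9 cation-chloride transporters and 8 of 9 sodium-calcium exchangers. Mitochondrial carriers were the largest group, with 37 of 47 genes. The organic ion transporters had the lowest share, with 12 of 25 genes (48.0%). The neurotransmitter and amino acid uptake family Slc6 had 8 genes with a peak in both lists. Another 5 had a peak in Tyrobp-/- only (Slc6a4, Slc6a6, Slc6a19, Slc6a20a and Slc6a21) and 1 in WT only (Slc6a16). Among all genes with a peak in either list, 11.1% were in the Tyrobp-/- list only and 9.01% in the WT list only. In Tyrobp-/- the fold enrichments were 5.4 for Slc6a4, 6.67 for Slc6a21, 3.69 for Slc6a19, 1.75 for Slc6a6 and 1.48 for Slc6a20a (member median 5.08). The Slc6a16 value in WT was 8.79 (member median 4.95). The FDR did not reach 0.05 for Slc6a20a (0.126), Slc6a21 (0.29) and Slc6a16 (0.0933). A peak needs enough RNA to be called, and the expression of these genes was not analysed here, so no peak says nothing about the mark on a gene with few reads.

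**Figure D3:**
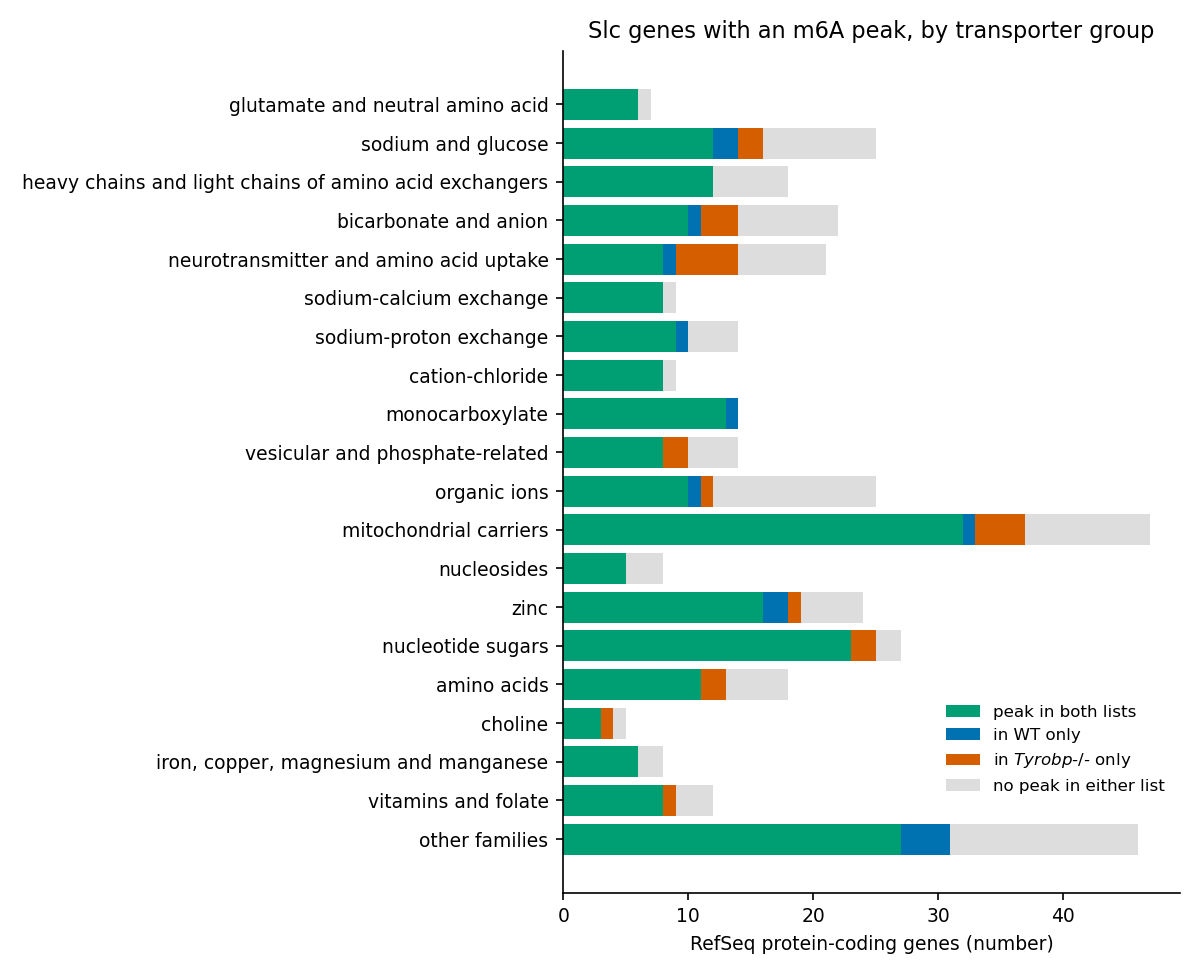
Number of RefSeq protein-coding Slc genes in each transporter group, split into genes with a peak in both lists, in WT only, in Tyrobp-/- only, and with no peak in either. Monocarboxylate transporters have no gene without a peak, and 13 of the 25 organic ion transporters have none in either list.

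The genes with the most peaks were Slc6a9 (glycine reuptake) with 7 in WT and 9 in Tyrobp-/-, Slc37a1 with 7 and 6, Slc7a4 with 8 and 5, and Slc43a2 (large neutral amino acid transport) with 5 and 6. Slc8a3, Slc38a1 and Slc45a4 came among the next, each with 10 peaks over both lists. Peaks of 1 gene were not always separate regions, as at Slc6a9, and 36 member peaks in WT (7.21%) and 40 in Tyrobp-/- (7.69%) overlapped another peak of their own list, against 13.3% and 12.8% of all peaks. An exact pair of fold enrichment and FDR that recurs at 20 or more peaks of a list was found at 73 member peaks in WT (14.6%) and 69 in Tyrobp-/- (13.3%), against 15.4% and 16.2% of all peaks. The reads behind such a peak are not known, and recurring values are marked below for the named pairs past 2-fold. Unmarked values can recur at fewer than 20 peaks. In WT, the pair of values of the Slc26a4 peak of 32.2 was found at 10 peaks. That of the Slc25a48 peak of 44.9 was found at 3. The reads behind unmarked peaks, strong ones included, are not known either.

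For the genotype comparison, a WT peak and a Tyrobp-/- peak of 1 gene were matched where each was the other's largest overlap, and the log2 ratio of the Tyrobp-/- over the WT fold enrichment was taken. The 373 matched member pairs had a median log2 ratio of 0.08 (quartiles -0.26 and 0.44), and the 23587 matched pairs of all genes had 0.05 (-0.28 and 0.39). The ratio was above 0 in 209 member pairs (56.0%) and in 53.6% of all pairs. At least 2-fold higher values in Tyrobp-/- were found at 23 member pairs (6.17%) in 22 genes, against 6.91% of all pairs. At least 2-fold lower values were found at 17 member pairs (4.56%) in 16 genes, against 6.05% of all pairs. Both shares lay near those of all pairs. By transcript part, the median log2 ratio of members was 0.13 in 3' UTRs (227 pairs), -0.09 in 5' UTRs (77 pairs), 0.26 in first exons (17 pairs) and -0.04 in other exons (52 pairs), where all pairs had 0.08, -0.01, -0.03 and -0.01. Of the 3' UTR pairs, 13 (5.73%) were higher and 4 (1.76%) lower, against 5.12% and 3.76% of all 3' UTR pairs. Of the 5' UTR pairs, 5 (6.49%) were higher and 8 (10.4%) lower, against 8.07% and 8.63% of all 5' UTR pairs.

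**Figure D4:**
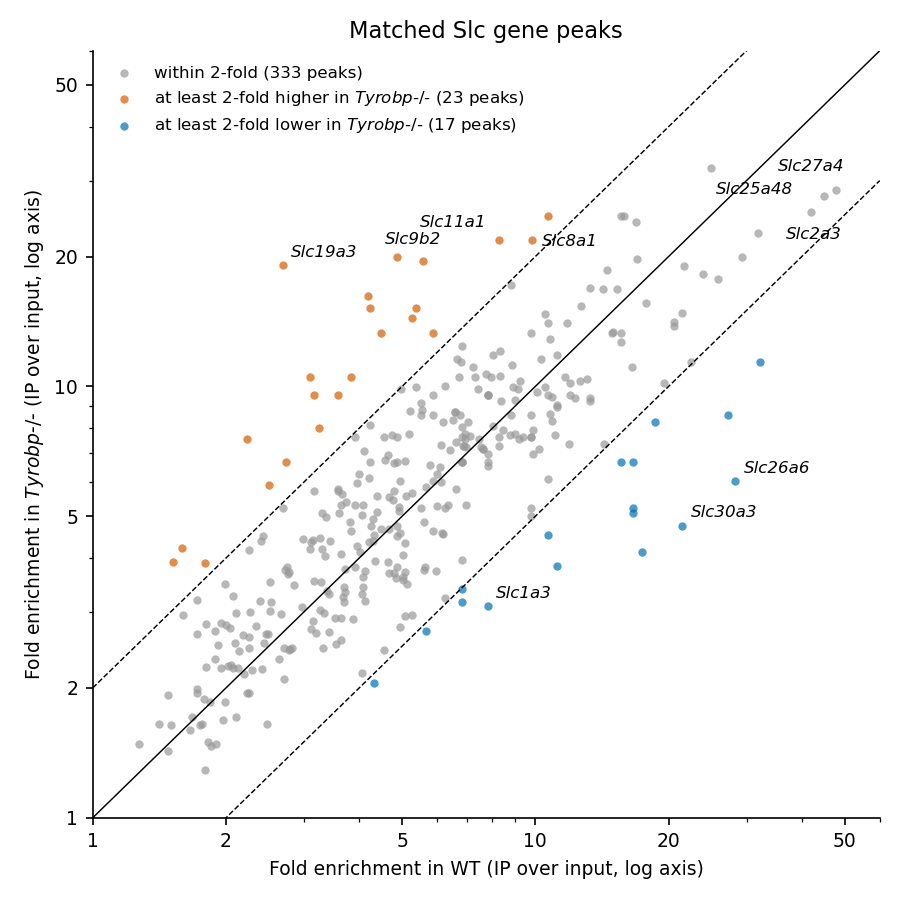
Fold enrichment (IP over input, log axes) of each of the 373 matched Slc gene peaks in WT (horizontal) and Tyrobp-/- (vertical), with a solid line of equality and dashed lines at 2-fold. The 23 peaks above the upper line and the 17 below the lower one are coloured, and the other 333 lie within 2-fold.

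The highest log2 ratio was at the 3' UTR of Slc19a3, a thiamine transporter, where the value was 2.69 in WT (chr1:83013415-83013713) and 19.1 in Tyrobp-/- (chr1:83012523-83013832), a log2 ratio of 2.83. Slc9b2, a sodium-proton exchanger, had 4.88 and 20 at a 3' UTR peak (2.04), 3.58 and 9.53 at a neighbouring 3' UTR peak (1.41), and 6.84 and 3.4 at its 5' UTR (-1.01). Its 3' UTR and 5' UTR ratios thus had opposite signs. When the paired peaks had to share more bases (closing section), only its 5' UTR pair stayed past 2-fold. With the stricter FDR given there, no Slc9b2 pair did. Slc24a4, a potassium-dependent sodium-calcium exchanger, had 4.19 and 16.2 at its 5' UTR (1.95). Slc7a4 had 4.23 and 15.2 (1.85), both recurring values. Slc22a23, an organic ion transporter family member, had 5.58 and 19.5 in its 3' UTR (1.81), with FDRs of 3.98e-53 and 2.51e-79. Slc6a9 had 3.09 and 10.5 at a 5' UTR peak (1.76), where the WT peak overlaps another of its own list. Slc37a2, a sugar-phosphate exchanger, had 2.23 and 7.56 in its 3' UTR (1.76), and Slc10a7 had 3.17 and 9.53 in its first exon (1.59), where the WT FDR was 0.109 and both values recur.

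The higher peaks were mostly also wider in Tyrobp-/-. Of the 23, 17 covered more exonic bases in Tyrobp-/-, 3 fewer and 3 the same, whereas over the 373 pairs 159 were wider and 159 narrower. The Slc19a3 peak, for example, covered 299 bases in WT and 1310 in Tyrobp-/-. The ratio of such a pair compares stretches of unequal length, and the part of width in it was not tested. Among the 34 member pairs with the same start and end in both lists, 2 reached 2-fold, both higher. The Slc11a1 3' UTR peak at chr1:74385494-74386062, in the gene for a phagosomal metal transporter of macrophages and microglia, had 8.3 in WT and 21.9 in Tyrobp-/- (log2 ratio 1.40, FDR 5.01e-14 and 5.01e-22). The Slc14a1 3' UTR peak, in a urea transporter gene, had 3.24 and 8.02 (1.31). Over all pairs with the same start and end, 3.72% were higher and 3.77% lower.

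The lower peaks were mostly narrower in Tyrobp-/-, with 12 of 17 covering fewer bases, 4 more and 1 the same. The lowest log2 ratio was at the 5' UTR of Slc26a6, an anion exchanger, where the value was 28.3 in WT and 6.04 in Tyrobp-/-, a log2 ratio of -2.23. Slc30a3, the zinc transporter of synaptic vesicles of hippocampal mossy fibres, had 21.5 and 4.76 at its 5' UTR (-2.18), with an FDR of 0.0912 in Tyrobp-/- and recurring values in both lists. Slc38a1, a neuronal glutamine transporter, had 17.4 and 4.13 in its last exon (-2.07, FDR 2e-23 and 1.45e-07). Slc14a2, a urea transporter gene, had 16.6 and 5.08 (-1.71), both recurring values. Slc45a3 had 27.3 and 8.58 (-1.67), Slc37a1 had 16.6 and 5.24 at a 5' UTR peak (-1.66), and Slc26a4 had 32.2 and 11.4 at its 5' UTR (-1.5). A Slc6a9 3' UTR peak had 11.2 and 3.83 (-1.55), one of the peaks that overlap another of their own list. At the threshold, the pairs just inside were Slc38a3 (1.79 and 3.89) and Slc8a1 (9.82 and 21.9) above and Slc16a5 (5.66 and 2.71) and Slc9b2 (6.84 and 3.4) below. Those just outside were Slc8a2 (4.98 and 9.87) and Slc6a12 (8.79 and 17.2) above and Slc25a2 (22.5 and 11.4) and Slc35b3 (9.77 and 5.0) below.

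The rest of the results follow the role of each transporter, over 47 genes chosen for known roles in the hippocampus. A peak was present in WT for 42 of them and in Tyrobp-/- for 43, and Slc6a3 and Slc4a4 were among those with none in either list. Their 81 matched pairs had a median log2 ratio of 0.06, with 3 (3.7%) higher and 5 (6.17%) lower, against 6.91% and 6.05% of all pairs. The counts of single roles below rest on 6 to 13 pairs each and are read against the same shares.

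**Figure D5:**
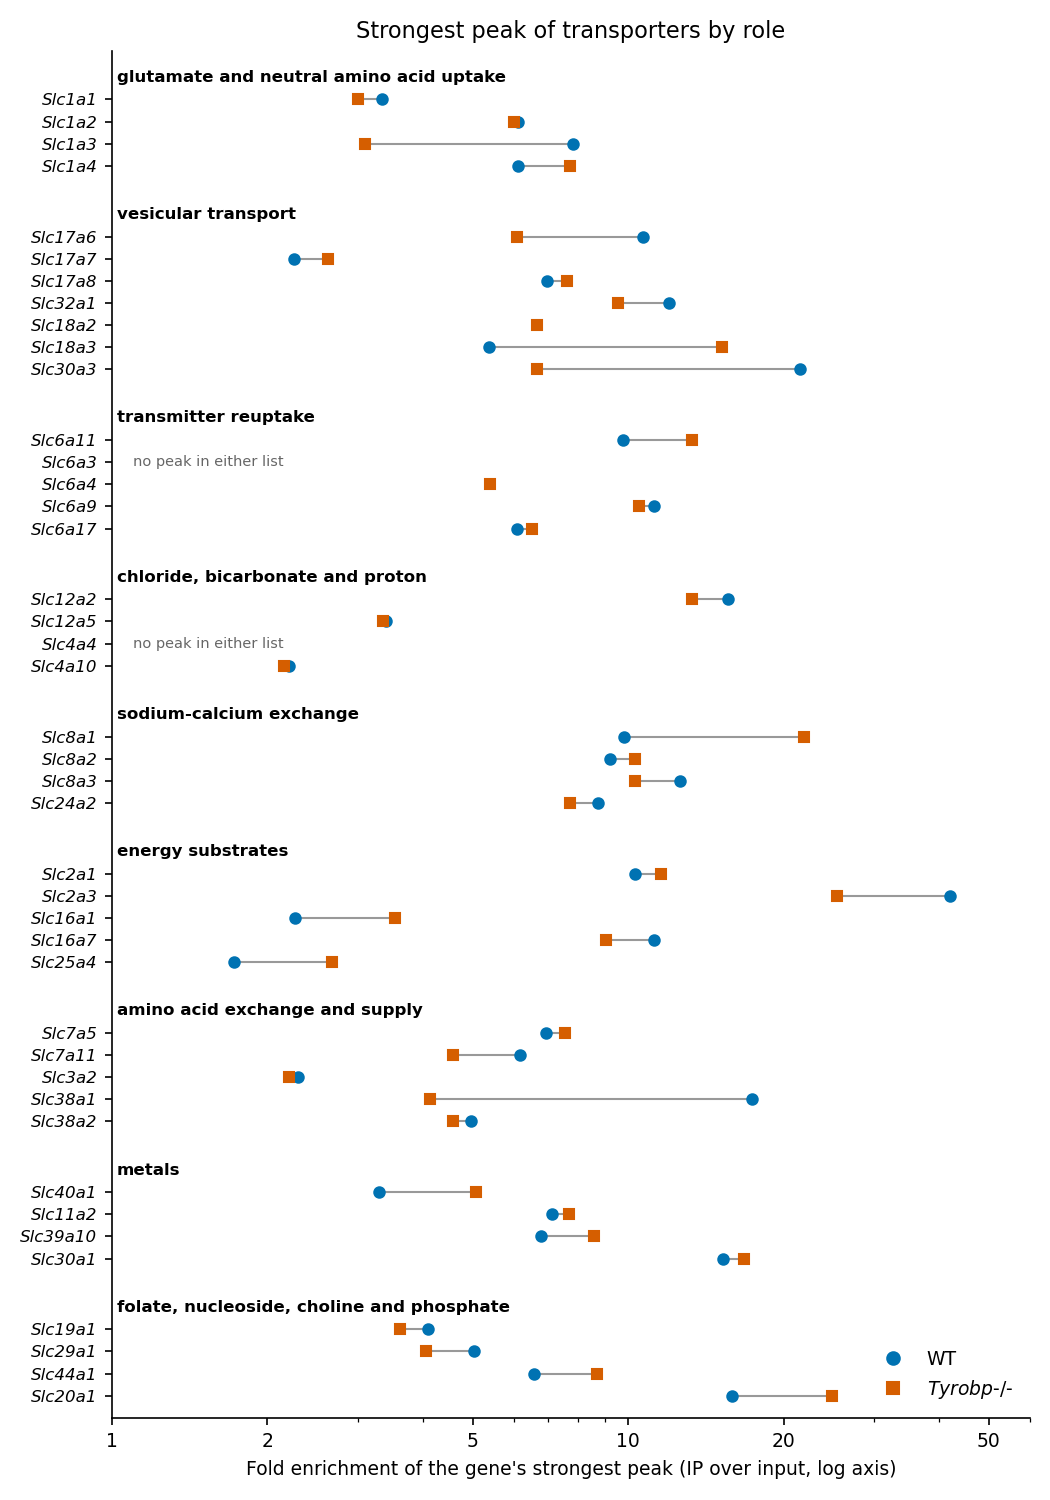
Fold enrichment (IP over input, log axis) of the strongest peak of each of 42 of these transporter genes in WT (circles) and Tyrobp-/- (squares), grouped by role, with a grey line joining the genotypes. The strongest peaks of a gene need not be the same region in both lists, and Slc38a1 shows 17.4 in WT and 4.13 in Tyrobp-/-.

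Glutamate clearance genes held peaks in both lists. Slc1a2, the main astrocyte glutamate transporter, had 3' UTR peaks of 5.1 and 6.11 in WT, and 5.57 and 6.01 in Tyrobp-/-. Slc1a3, the other astrocyte glutamate transporter, had 7.81 in WT and 3.09 in Tyrobp-/- at its 5' UTR (log2 ratio -1.34, FDR 1e-229 and 1e-171), and 1.48 and 1.43 at its 3' UTR. Of these, the 5' end alone passed 2-fold. Slc1a1, the neuronal glutamate transporter, had 3.33 and 2.99, and Slc1a4, a neutral amino acid transporter, had 6.12 and 7.32 at its strongest WT peak.

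Vesicular transporters had 1 pair higher and 1 lower among 9. Among the 3 vesicular glutamate transporters, Slc17a7 had a single weak 3' UTR peak (2.25 in WT and 2.62 in Tyrobp-/-), Slc17a6 had a 5' UTR peak (10.7 and 6.09), and Slc17a8 had a peak of 6.97 and 7.22 in an internal exon. Slc32a1, the vesicular GABA transporter, had 12 and 9.56 in its 3' UTR. Slc18a3 was at least 2-fold higher (5.37 and 15.2, log2 ratio 1.5, WT FDR 0.0525, both recurring values) and Slc30a3 at least 2-fold lower. Slc18a2, the vesicular monoamine transporter, had a peak in Tyrobp-/- only, at 6.67.

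Reuptake transporters had 1 pair higher and 2 lower among 12. Slc6a11, an astrocyte GABA transporter, had 5.18 and 7.77 in its 3' UTR (0.58). The serotonin transporter Slc6a4 had a Tyrobp-/- peak only (5.4) and the dopamine transporter Slc6a3 none. Slc6a17, a vesicular amino acid transporter counted here with the reuptake genes, had 6.1 and 6.52 at its strongest peak. Its 3 matched pairs are among the 12 and lay between 0.03 and 0.32 on the log2 ratio.

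All 11 matched pairs of chloride, bicarbonate and proton transporters lay within 2-fold, between -0.23 and 0.56 on the log2 ratio. Slc12a5, which lowers neuronal chloride, had 3.39 and 3.35 in its 3' UTR, and Slc12a2, which raises it, had 5.27 and 5.66 there. The bicarbonate transporter Slc4a10 had 2.2 and 2.15.

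In sodium-calcium exchange, the 5' UTR of Slc8a1, which extrudes calcium from neurons and heart muscle, had 9.82 in WT and 21.9 in Tyrobp-/- (1.16, FDR 1e-321 and 1e-150). The 3' UTR peak of Slc8a1 had 6.18 and 8.27. Slc8a2 had 9.24 and 10.3 at its strongest peak, Slc8a3 12.6 and 10.3, and Slc24a2 8.75 and 7.73. Only the Slc8a1 5' UTR pair passed 2-fold among the 13 pairs of this role.

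None of the 7 pairs of energy substrate transporters passed 2-fold. The blood-brain barrier glucose transporter Slc2a1 had 10.3 and 11.6 in its 3' UTR. Slc16a7, a neuronal lactate and pyruvate transporter, had 11.2 and 9.04, and Slc16a1, which carries lactate in endothelium and glia, had 2.26 and 2.48. Slc25a4, the ADP/ATP carrier of mitochondria, had 1.72 and 2.67 (0.63).

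Among amino acid exchangers, the only pair of the 9 beyond 2-fold was that of Slc38a1. Slc7a5, the large neutral amino acid transporter, had 6.94 and 7.56, and Slc7a11, the cystine-glutamate exchanger, had 6.17 and 4.58. Their shared heavy chain gene Slc3a2 had 2.29 and 2.2, and Slc38a2 had 4.95 and 4.58. Among metal transporters, with 7 pairs from -0.11 to 0.63, the zinc exporter Slc30a1 had 15.3 and 16.8, the iron exporter Slc40a1 3.29 and 5.08, the iron importer Slc11a2 7.11 and 7.68, and the zinc importer Slc39a10 6.77 and 8.58. Of the remaining roles, the phosphate transporter Slc20a1 had 15.9 and 24.8 at its 5' UTR, the choline transporter Slc44a1 6.57 and 8.72, the nucleoside transporter Slc29a1 5.03 and 4.06, and the folate carrier Slc19a1 4.09 and 3.62.

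A part of the member peaks overlapped no peak of the same gene in the other list. These were 107 of 499 in WT (21.4%, 17.9 to 25.3) and 119 of 520 in Tyrobp-/- (22.9%, 19.3 to 26.7), against 22.5% and 24.6% of all peaks. They were shorter than shared ones, with a median of 178 exonic bases against 389 in WT, and 151 against 360 in Tyrobp-/-. The 3' UTR held 39.3% (30.0 to 49.2) of the WT ones and 57.1% (47.7 to 66.2) of the Tyrobp-/- ones. Among the peaks of all genes that likewise overlapped no peak of the same gene in the other list, it held 28.3% and 40.6%. The strongest of these member peaks in WT were those of Slc9a3, a sodium-proton exchanger (14.6), Slc27a5 (13.7), Slc25a5-ps (12.7), Slc30a3 (12.7, a first exon peak) and Slc9a8 (11.7). All but the Slc9a8 peak held recurring values, with FDRs from 0.00151 to 0.00501. The strongest in Tyrobp-/- were at Slc25a28 (33.4), Slc35e2 (21.9), Slc5a3, the myo-inositol transporter (16.5), Slc35b2, which brings sulphate donor into the Golgi (15.2), and Slc35g3 (15.2). The Slc35b2 and Slc35g3 peaks had the same fold enrichment and the same FDR of 0.000977.

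Some of these peaks lay under a peak that the other list gave to another gene. This held for 10 of the 107 WT peaks and 3 of the 119 Tyrobp-/- peaks. The Slc5a3 peak (chr16:92077730-92079469, FDR 3.16e-90) was assigned to Slc5a3 in Tyrobp-/-, and the WT list had a Mrps6 peak of 15.9 over it, from 92058472 to 92079559. Enrichment over the stretch was thus called in both genotypes and assigned to different genes. Slc25a5-ps likewise overlapped a Tyrobp-/- peak of Fhit (16.2), and Slc10a3 one of Ubl4a (4.21).

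Members known as markers of cell types were checked by class. Peaks were present in both genotypes for 3 of 3 markers of excitatory neurons, 2 of 2 of inhibitory neurons, 4 of 5 of astrocytes, 2 of 2 of oligodendrocytes, 5 of 6 of endothelium and 4 of 4 of microglia. Of 10 hippocampal marker genes that are not members, 8 had peaks in both lists. Of 6 choroid plexus and meninges markers, 2 had a peak in WT and 3 in Tyrobp-/-, while Slc4a5, Slc6a13 and Slc47a1 had none. Of 6 markers of monoamine or cholinergic neurons, whose cell bodies lie outside the hippocampus, 2 had a peak in WT (Slc18a3 and Slc5a7) and 4 in Tyrobp-/- (Slc6a4 and Slc18a2 as well). In bulk tissue, fewer cells of a type and less RNA per cell cannot be told apart. The microglial members gave 6 matched pairs. Slc11a1 had the log2 ratio of 1.40, Slc7a7, an amino acid exchanger light chain, had 2.42 and 4.5 (0.89), and Slc2a5, the fructose transporter, had 8.33 and 12.1 (0.54) in its 3' UTR and 7.32 and 10.5 (0.52) in its 5' UTR. Slc15a3, a lysosomal peptide transporter, had 5.79 and 6.58 (0.18) and 5.6 and 3.76 (-0.57). Only the Slc11a1 pair reached 2-fold.

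Partners of the transporters were followed for context. The sodium pump, which sets the gradient that many solute carriers use, had peaks in 5 of 6 genes in both lists, and its 5 pairs lay between -0.09 and 0.20. The vesicular proton pump had 11 of 25 genes with a WT peak and 13 with a Tyrobp-/- peak, and 1 of 12 pairs (8.33%) was higher. The escort proteins of transporters had peaks in 2 of 4 genes in WT and 3 in Tyrobp-/-. Their 2 pairs were both at Emb and had opposite signs. The pair in the other exon class had 4.39 and 12.4 (1.5), and the 3' UTR pair had 13.7 and 7.62 (-0.85). The ABC transporters had 28 and 33 of 50 genes, with 2 of 38 pairs (5.26%) higher and 1 (2.63%) lower, against 6.91% and 6.05% of all pairs.

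The deposited genotype comparison lists 5640 regions, 88 of them at members, in 74 genes. Of the 88, 53 overlapped a peak of the gene in both lists, 14 in WT only, 19 in Tyrobp-/- only and 2 in neither (60.2%, 15.9%, 21.6% and 2.27%). Over all regions the shares were 61.8%, 12%, 23.4% and 2.78%. The 3' UTR held 60.2% (49.2 to 70.5) of the member regions and 53.3% of all regions.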

How the data were processed

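MeRIP-seq libraries (m6A IP and input) were made from pooled hippocampi of Tyrobp-/- mice and WT littermates. Per the study's methods, fastp trimmed the reads, HISAT2 aligned them to version v96 of the mouse genome and exomePeak found peaks. The submitters' processing notes also name HOMER and ChIPseeker. How the 3 samples of a genotype were combined at peak calling is not given in the sources used here, and 1 list per genotype was deposited. The deposited files give read counts and the percent of bases passing quality limits per library, and a fold enrichment (the ratio of IP over input), a p-value score and a log10 FDR per peak. The authors' comparison table also holds a log2 fold change, its p-value and its FDR between genotypes, which were not used.

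Peaks were matched across lists by gene and by at least 1 shared exonic base, with each being the other's largest overlap (Python 3.11.15, pandas 2.3.3, scipy 1.17.1), and the code was tested on simulated peaks. Members and gene lists were chosen with earlier results of these data known. Named genes were the 47 role genes, the members with most peaks, the 5 strongest peaks of each list, the 8 highest and 8 lowest log2 ratios, the 5 strongest peaks found in 1 list alone, and the peaks beside the 2-fold limit. The Slc11a1, Slc14a1, Slc10a3, Slc8a1, cell marker and start-window examples were picked after their values were seen. Peak coordinates are those of the files, read as GRCm38 because 6445 of 13569 gene names had a start or end identical to RefSeq GRCm38.p6, the source of the sequences. A few of the role genes are not reported here.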

Additional observations from a re-analysis of the deposited data

How the results depend on the processing

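No paired analysis was possible because the deposited lists give 1 value per genotype, and leaving out a replicate was not possible for the same reason. With peaks kept at an FDR under 1e-5, member peaks numbered 325 in WT and 331 in Tyrobp-/-, and 66.5% and 67.7% lay in 3' UTRs. With a fold enrichment of at least 4, they numbered 307 and 312. With 1 peak per gene, the WT 3' UTR share was 60.6%. For pairs at least 2-fold higher, the count of 23 became 12 with a reciprocal overlap of 50% (3.97%, against 5.25% of all pairs under that rule). It became 9 with the stricter FDR (3.35%, against 4.49%) and 64 at 1.5-fold (17.2%, against 16%). For pairs at least 2-fold lower, the count of 17 became 12 with a reciprocal overlap of 50% (3.97%, against 4.31%). It became 5 with the stricter FDR (1.86%, against 3.43%) and 36 at 1.5-fold (9.65%, against 13.2%). A reciprocal overlap of 80%, chosen after seeing the data, left 190 pairs. Of these, 5 were higher (2.63%, against 3.38% of all pairs) and 6 lower (3.16%, against 2.87%). The cause was not tested beyond the fewer pairs each rule keeps. Under both overlap rules and the stricter FDR, a pair of Slc11a1, Slc14a1 and Slc8a1 stayed at least 2-fold higher, and a pair of Slc45a3, Slc38a1 and Slc26a4 at least 2-fold lower. For Slc26a4, the pair kept under the stricter FDR was at its 3' UTR (6.84 in WT and 3.16 in Tyrobp-/-, log2 ratio -1.11). Its 5' UTR pair, named above, had an FDR of 4.07e-05 in Tyrobp-/- and was not kept there. The Slc19a3 pair was lost under both overlap rules, as were the higher pairs named above for Slc9b2, Slc24a4, Slc7a4, Slc6a9 and Slc10a7. Those of Slc22a23 and Slc37a2 were kept at an overlap of 50% and lost at 80%. The lower pairs of Slc26a6 and Slc37a1 were lost under both overlap rules and the stricter FDR. Those of Slc30a3, Slc14a2 and Slc6a9 were kept at 50% and lost at 80%. The median log2 ratio stayed between 0.03 and 0.09 in all settings run. With 1 value per genotype and unknown depth per peak, no error can be given for any ratio.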
